A study of Homo sapiens with 4 samples.

Results

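The neuroendocrine granule genes are 10 genes named for their place in the regulated secretory pathway: the granins CHGA, CHGB, SCG2 and SCG3, the granin-like precursor VGF, the processing enzymes PCSK1 and CPE, and the membrane and release proteins PTPRN, SYP and SNAP25. They were found by gene name, each in a single row, among 51103 genes of a table of read counts. They were selected on measured values of these data, taken here to be their reads in the 4 libraries, with no stated threshold, so their levels and ratios are given as a description, with no p-value, and nothing is read from how many of them pass a threshold. Polyadenylated RNA had been sequenced from CAL27 and SCC15, both catalogued as lines from human tongue squamous carcinomas, each grown for 48 h with the solvent DMSO or with 10 µM decitabine (5-aza-2'-deoxycytidine), a cytidine analogue that traps DNA methyltransferases. Each of the 4 combinations of line and treatment had 1 library, with no replicate culture. The stated purpose was to find genes whose expression differs with the drug.

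Library totals ran from 14524461 to 17583706 reads. The 2 libraries labelled SCC15 lacked or nearly lacked most of the squamous markers read in CAL27. The summed CPM (counts scaled to library size by TMM, with a factor per library that evens out composition) of 12 squamous markers was 1380 and 1430 in CAL27 with DMSO and decitabine, and 13.4 and 94.0 in the SCC15-labelled libraries, where 9 and 5 of the 12 were at 0 reads. KRT5 had 8054 and 8359 reads in CAL27 against 0 and 1, and TP63 2133 and 2163 against 0 and 24. ITGB4 was the marker of this list most read in the SCC15-labelled libraries, with 3740 and 4745 against 171 and 1512. Of 9 mesenchymal markers, 4 were higher in these libraries than in CAL27 and 3 lower by edgeR's quasi-likelihood test: VIM had 41 and 80 reads in CAL27 against 37300 and 27011, and CDH2 917 and 786 against 0 and 14. Of 7 simple epithelial markers none was higher and 4 were lower by that test. Among them KRT8 was read in both lines (18888 and 15699 against 11498 and 24882), while CDH1 had 2727 and 3911 against 4 and 1. These libraries are called SCC15-labelled throughout. What these cells are was not tested, and every difference between the lines given here is one between libraries as labelled.

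Neuroendocrine cells store peptide hormones in dense-core granules. Granins aggregate with the cargo in the trans-Golgi network, convertases and carboxypeptidases cut and trim the precursors as the granule matures, and SNARE proteins fuse the granule with the plasma membrane when calcium rises. Most epithelial cells secrete without such a store, and in many cell types without it the repressor REST holds a good part of these genes silent. Several of their promoters carry a cAMP response element, the palindrome TGACGTCA bound by CREB, whose central CpG is itself a possible site of DNA methylation.

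Promoter windows from RefSeq (GRCh38.p14, from 250 bases before to 50 after a transcription start) were matched by symbol for 7 of the 10 genes, and CHGB, SCG2 and SNAP25 were not matched. The palindrome was searched for in the 250 bases before the start; it reads the same on both strands. CHGA, VGF and PCSK1 each held 1 copy, beginning 54, 79 and 77 bases before the start, whereas 1.65% of 35116 such windows of all genes held it. These 3 stretches are shown because they are the member windows that hold the palindrome, which is in capitals, 5′ to 3′ on the strand of the gene. They cover chr14:92923050-92923149 (plus strand) for CHGA, chr7:101165570-101165669 (minus strand) for VGF and chr5:96433249-96433348 (minus strand) for PCSK1, which has a second listed start without the palindrome.
CHGA: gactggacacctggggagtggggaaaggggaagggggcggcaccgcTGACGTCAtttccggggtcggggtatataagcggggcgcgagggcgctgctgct
VGF: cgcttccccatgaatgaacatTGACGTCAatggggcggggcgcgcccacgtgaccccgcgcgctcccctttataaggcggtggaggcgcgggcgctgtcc
PCSK1: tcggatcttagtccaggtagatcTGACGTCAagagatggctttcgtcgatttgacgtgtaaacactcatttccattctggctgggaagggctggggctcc
The windows of CPE, PTPRN, SCG3 and SYP did not hold these 8 letters before the start. The shorter TGACG on either strand, which each palindrome holds 2 times, had 2 copies before the start of CPE. It also had 2 copies before 1 of the 2 listed starts of PTPRN and none before the other. Of all windows, 21.2% held it. CpG dinucleotides in the 300-base windows numbered 35 for VGF and for SYP, 24 for CHGA and for CPE, 18 for SCG3, 25 and 16 for the 2 starts of PTPRN and 16 and 13 for those of PCSK1, against a median of 14 over all windows.

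The granins and VGF were abundant in the SCC15-labelled libraries and near or at 0 in CAL27. CHGA (ENSG00000100604, chromosome 14, 92923080 to 92935293), the acidic protein that gives the granule its dense core, had 0 reads in both CAL27 libraries, 1040 in SCC15-labelled cells with DMSO and 2429 with decitabine. The untreated SCC15-labelled library was thus at least 361-fold higher than untreated CAL27, taking a count of 0 as a floor of 3 reads per library, which is 0.179 to 0.214 CPM. CHGB (ENSG00000089199, chromosome 20, 5911430 to 5925361), a related granin, had 1 and 0 reads in CAL27 and 861 and 1914 in the SCC15-labelled pair. No SCC15-labelled value came near a CAL27 value for either chromogranin.

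SCG2 (ENSG00000171951, chromosome 2, 223596940 to 223602503), the precursor of secretoneurin, was the granin most read in CAL27, with 27 and 46 reads there and 6031 and 9526 in the SCC15-labelled pair. Without drug the SCC15-labelled level was 232-fold that of CAL27 (95% counting interval 160 to 353), and with drug 200-fold (150 to 274). SCG3 (ENSG00000104112, chromosome 15, 51681353 to 51721031), which ties granin aggregates to the cholesterol-rich granule membrane, had 1 read in each CAL27 library against 2531 and 2888. VGF (ENSG00000128564, chromosome 7, 101162509 to 101165593), a nerve growth factor-inducible precursor of several peptides, had 8 and 22 reads in CAL27 and 19322 and 23443 in the SCC15-labelled libraries. It ranked 57th by FPKM (fragments scaled to transcript length and library size, as the authors computed it) among the genes of the untreated SCC15-labelled library and 49th in the treated one.

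The 2 processing enzymes were the members with the most reads in CAL27, not corrected for length. PCSK1 (ENSG00000175426, chromosome 5, 96390415 to 96434143), the prohormone convertase of granules, had 41 and 51 reads in CAL27 and 3835 and 5646 in the SCC15-labelled pair, a ratio of 97.3 (71.6 to 136) without drug. CPE (ENSG00000109472, chromosome 4, 165361194 to 165498320), the carboxypeptidase that trims the basic residues left by the convertases, had 43 and 141 reads in CAL27 and 345 and 736 in the SCC15-labelled pair. The ratio of the lines was 8.35 (6.07 to 11.7) without drug and 5.05 (4.21 to 6.09) with it, the smallest of the 10 genes in both cases.

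PTPRN (ENSG00000054356, chromosome 2, 219289623 to 219309648), a granule membrane protein known as the islet autoantigen IA-2, had 3 reads in each CAL27 library and 1698 and 4969 in the SCC15-labelled pair. SYP (ENSG00000102003, chromosome X, 49187804 to 49200259), the synaptic vesicle protein used in pathology as a neuroendocrine marker, had 10 and 19 against 674 and 1438. SNAP25 (ENSG00000132639, chromosome 20, 10218830 to 10307418), the plasma membrane SNARE of neurons and endocrine cells, had 0 and 1 against 677 and 847. The strand setting of the counting is not given in the sources used here. The opposite-strand gene with the most reads was SNAP25-AS1, with 2, 0, 6 and 15 in the order CAL27 DMSO, CAL27 decitabine, SCC15-labelled DMSO and SCC15-labelled decitabine.

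**Figure D1:**
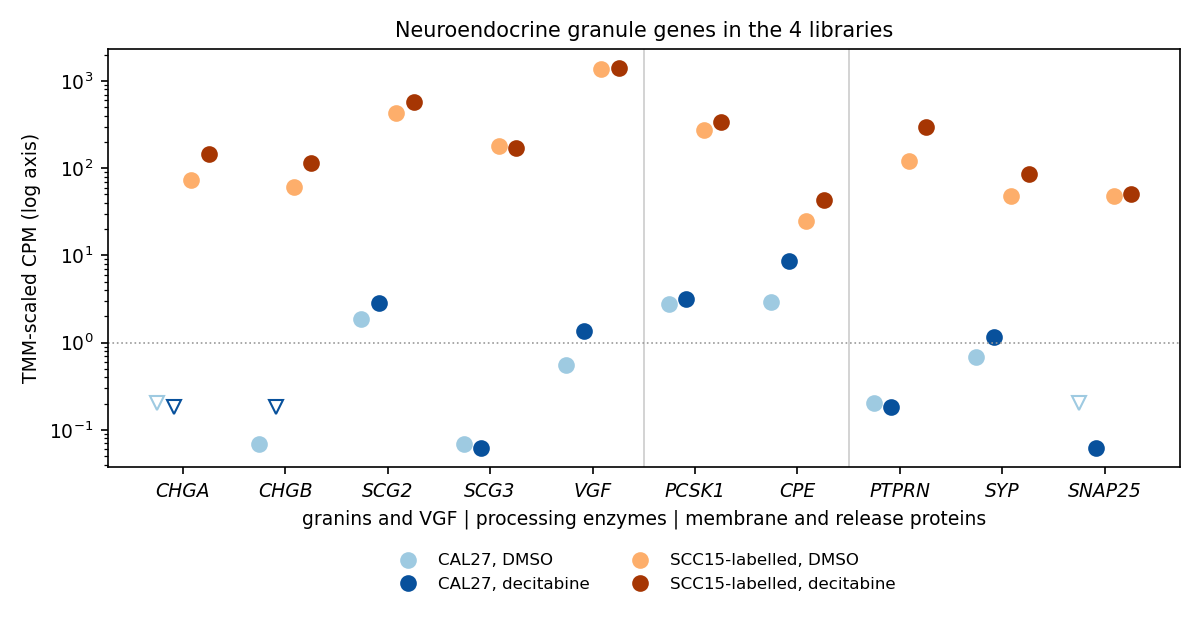
TMM-scaled CPM of the 10 genes in each of the 4 libraries, on a log axis; filled points are measured values, open triangles stand at the floor of 3 reads for libraries with 0 reads, and the dotted line is 1 CPM. Every SCC15-labelled point lies above both CAL27 points of its gene, with the narrowest gap at CPE (8.68 CPM in treated CAL27 against 24.6 in the untreated SCC15-labelled library).

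In all, the 10 genes took 134 and 284 reads of the CAL27 libraries and 37014 and 53836 of the SCC15-labelled ones, 0.25% and 0.306% of the reads in the latter. Of the 10, 5 had more than 3 reads in CAL27, with or without drug, and all 10 did in both SCC15-labelled libraries. For all 10, both SCC15-labelled libraries were above both CAL27 libraries in CPM, which held for 34.8% of the 15427 genes tested. CHGA, CHGB, SCG3, PTPRN and SNAP25 passed the filter on low counts through the SCC15-labelled libraries alone, so they had to differ, and nothing is read from this count.

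Per transcript length, the 10 genes spanned a wide range within the SCC15-labelled cells. With DMSO the order by FPKM was VGF at 482, SCG2 at 150, SCG3 at 51.5, PCSK1 at 48.7, CHGA at 22.6, PTPRN at 13.9, SNAP25 at 13.6, CHGB at 12.8, SYP at 8.71 and CPE at 7.86, so that VGF was 61.3 times CPE and made up 59.4% of the sum. Neighbours whose 95% counting intervals overlapped were SCG3 and PCSK1, PTPRN and SNAP25, SNAP25 and CHGB, and SYP and CPE. With decitabine the order was VGF at 493, SCG2 at 199, PCSK1 at 60.5, SCG3 at 49.5, CHGA at 44.5, PTPRN at 34.2, CHGB at 24.0, SYP at 15.7, SNAP25 at 14.3 and CPE at 14.2. The range narrowed to 34.8 times, and only SYP and SNAP25 and then SNAP25 and CPE overlapped. SNAP25 moved from the 7th to the 9th place and SCG3 from the 3rd to the 4th, as the genes around them reached higher FPKM. The intervals cover counting error in 1 library each, not the spread between cultures.

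**Figure D2:**
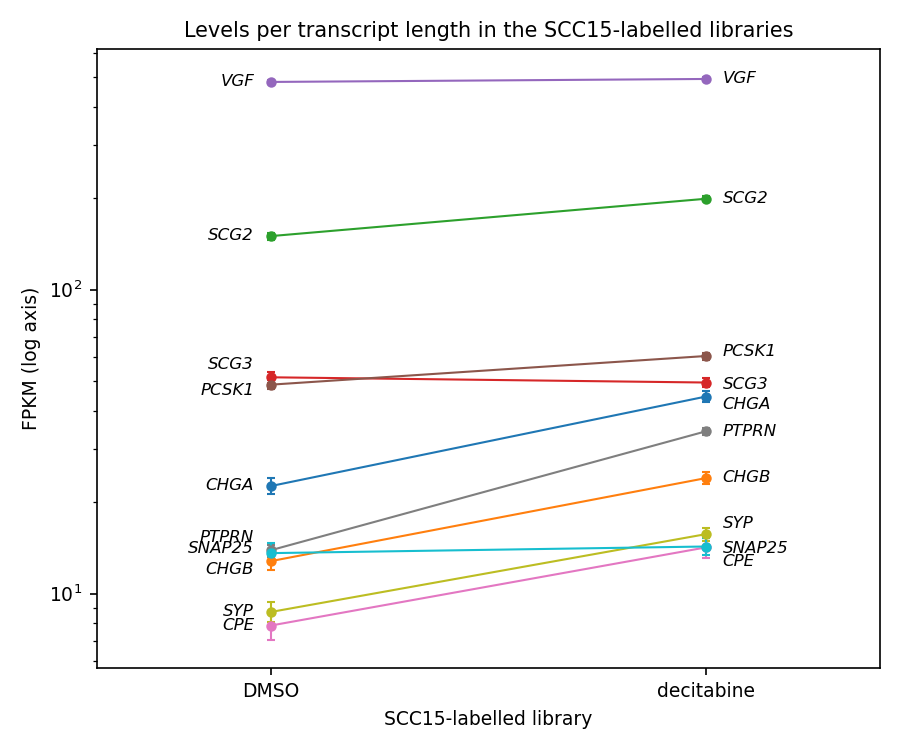
FPKM of the 10 genes in the SCC15-labelled libraries with DMSO and with decitabine, on a log axis; bars are 95% counting intervals. VGF (482 and 493), SCG3 (51.5 and 49.5) and SNAP25 (13.6 and 14.3) run nearly flat, while PTPRN goes from 13.9 to 34.2 and CHGA from 22.6 to 44.5.

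Within the SCC15-labelled pair the response to decitabine split the genes. PTPRN was 2.44-fold higher with drug (2.31 to 2.58), CHGA 1.95-fold (1.81 to 2.10), CHGB 1.85-fold (1.71 to 2.01), and CPE and SYP both 1.78-fold (1.56 to 2.03 and 1.62 to 1.95). SCG2 was 1.32-fold higher (1.28 to 1.36) and PCSK1 1.23-fold (1.18 to 1.28). VGF at 1.01-fold (0.993 to 1.03), SNAP25 at 1.04-fold (0.942 to 1.16) and SCG3 at 0.952-fold (0.902 to 1.00) were within or at the edge of counting error of no difference. Both chromogranins thus had larger ratios than VGF and SCG3, and PTPRN and SYP larger ones than SNAP25, in 1 library per treatment and before any account of GC content. The 3 genes with the palindrome shown above, CHGA, VGF and PCSK1, had folds of 1.95, 1.01 and 1.23.

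In CAL27 a fold could be given for 5 genes. CPE was 2.94-fold higher with drug (2.08 to 4.24), going from 43 to 141 reads, and VGF was 2.47-fold higher (1.06 to 6.41), from 8 to 22 reads. SYP at 1.71-fold (0.755 to 4.11), SCG2 at 1.53-fold (0.931 to 2.56) and PCSK1 at 1.12-fold (0.726 to 1.73) had intervals that reached below 1. The other 5, CHGA, CHGB, SCG3, PTPRN and SNAP25, had 0 to 3 reads with and without drug, so at this depth no appearance of these transcripts with decitabine was detectable. CPE was the only member whose interval lay above 1 in both lines.

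**Figure D3:**
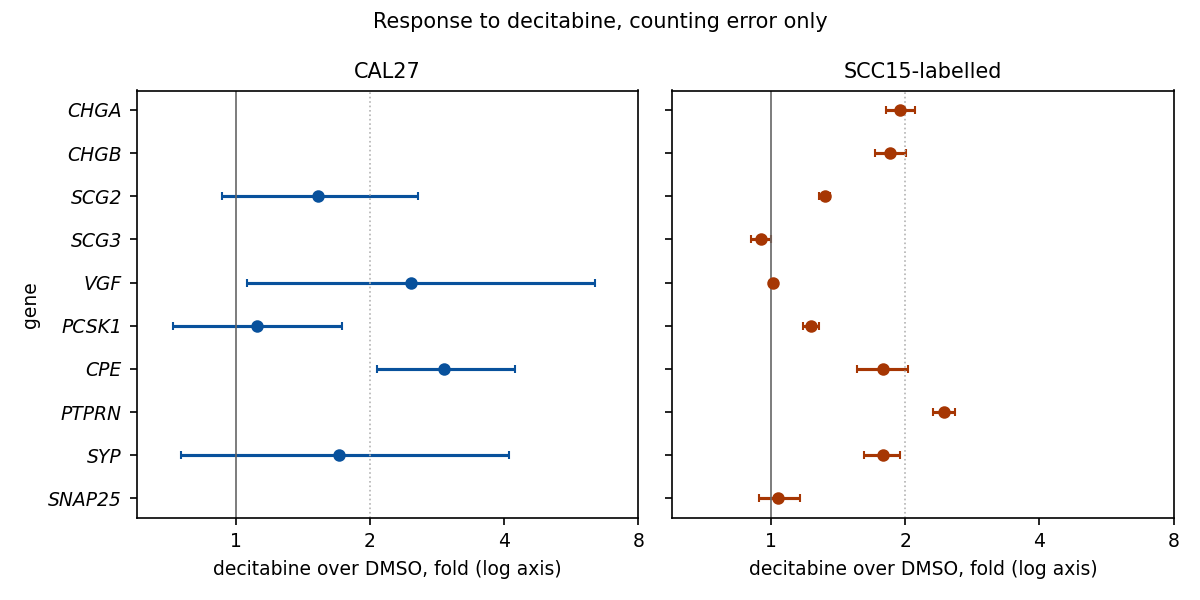
Fold of decitabine over DMSO for each gene in CAL27 (left) and in the SCC15-labelled cells (right), from TMM-scaled counts on a log axis; bars are 95% counting intervals, the solid line is no difference and the dotted line 2-fold, and genes with at most 3 reads in both CAL27 libraries have no point there. PTPRN (2.44) lies beyond 2-fold on the right, and CPE (2.94) and VGF (2.47) do on the left, the latter with a wide interval from 22 reads against 8.

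Past a log2 ratio of 1 (computed with a prior count of 2), with at least 1 CPM in either library, were 2 of 5 members in CAL27, CPE and VGF, beside 5.14% of 14238 genes that were as much higher and 1.29% as much lower. In the SCC15-labelled pair it was 1 of 10, PTPRN, beside 13.3% of 13894 genes higher and 6.2% lower. The median log2 ratio of the members with at least 1 CPM was 0.67 in CAL27 and 0.61 in the SCC15-labelled pair, against 0.00 and 0.07 over all such genes. In CAL27, VGF (0.549 and 1.35 CPM) and SYP (0.686 and 1.17 CPM) reached 1 CPM only with decitabine. These 2 had to be higher with drug, so nothing is read from the CAL27 count and median. Over all 10 members the CAL27 median was 0.36, against 0.00 over all 15427 genes tested. Across both lines none of the 10 was called higher or lower by edgeR's quasi-likelihood test with the cell line as a block, beside 0.544% of 15427 genes called higher and 0.0778% lower. Before adjustment, p was under 0.05 for 1200 genes on the higher side and 397 on the lower, and DESeq2 called none of the 10 either. With total-count scaling 1 member, CPE, was called higher. With 1 library per combination, whether the lines responded differently could not be tested.

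Over all genes, treated against untreated ratios were higher at higher transcript GC content, and the order of the members followed that trend in part. With genes in 10 equal groups by GC, the log2 ratio of the lowest group had a median of -0.11 in CAL27 and -0.52 in the SCC15-labelled pair, and that of the highest 0.25 and 0.62. SNAP25, SCG3, SCG2 and PCSK1 had the lowest GC of the members, 39.6, 41.9, 43.0 and 43.2%, and their SCC15-labelled log2 ratios were 0.06, -0.07, 0.40 and 0.30. PTPRN, SYP and CHGA, at 56.7, 58.9 and 62.4% GC, had 1.29, 0.83 and 0.96. CPE and CHGB, at 47.5 and 52.3% GC, were off that order with 0.83 and 0.89, about as high as SYP. VGF, at 70.6% the highest, was also off it with 0.02.

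With the GC trend of the SCC15-labelled pair taken out, the log2 ratios were 0.89 for PTPRN, 0.88 for CPE, 0.69 for CHGB and for SCG2, 0.57 for PCSK1, 0.51 for SNAP25, 0.44 for CHGA, 0.35 for SYP, 0.27 for SCG3 and -0.52 for VGF. None was then past 1, and their median was 0.54 against 0.11 over all genes with at least 1 CPM. SCG3 and VGF changed sign, the chromogranins no longer stood apart from SCG2 and PCSK1, and SNAP25 was above SYP and CHGA. In CAL27 the value of CPE was 1.53 and that of VGF 0.74, and the median of members with at least 1 CPM was 0.62 against -0.05. Over all 10 members the CAL27 median was 0.33, against -0.04 over all genes tested. CPE thus hardly moved in either line, at 47.5% GC. The part of GC in the other ratios was not tested further.

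**Figure D4:**
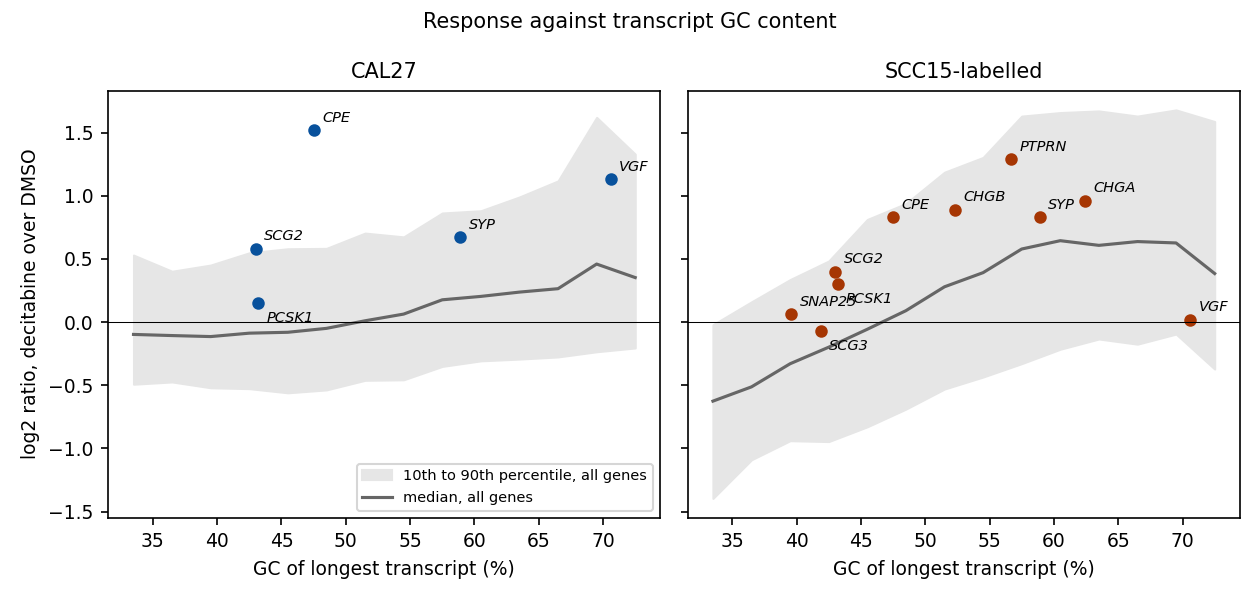
Log2 ratio of decitabine over DMSO against the GC content of the longest transcript, in CAL27 (left) and the SCC15-labelled cells (right); the line is the median and the band the 10th to 90th percentile over all genes with at least 1 CPM, in steps of GC, and points are members with at least 1 CPM. CPE in CAL27 (1.52) lies far above the band, and VGF in the SCC15-labelled cells (0.02) below the median of genes of like GC.

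Other genes of the pathway were read beside the members. Of 26 further granule genes 20 were tested, and by edgeR's quasi-likelihood test 8 were higher and 5 lower in the SCC15-labelled libraries than in CAL27, with a median log2 fold of 0.67 against 0.00 over all genes tested. Over all genes tested 21.6% were higher and 22.7% lower, which is the background for this and the following lists, and the test compares 2 libraries of each line that differ in treatment. In this list PCSK1N, RAB3C and CADPS passed the filter on low counts through the SCC15-labelled libraries alone, and CADPS2 through CAL27 alone. Such genes had to differ, so nothing is read from the counts of calls between lines. PCSK1N, the granin-like inhibitor of PCSK1, had 0 and 0 reads in CAL27 and 119 and 317 in the SCC15-labelled pair, at least 41.3-fold higher without drug. The second convertase of granules, PCSK2, had 0 reads in all 4 libraries, and SCG5, the chaperone of that enzyme, had 10, 9, 6 and 5; these 2, PTPRN2 and PAM were chosen after their values were seen. PCSK1 was therefore read together with its inhibitor, and PCSK2 and its chaperone were both absent or nearly so. PTPRN2, the paralogue of PTPRN, had 102, 131, 252 and 514 reads, a log2 line difference of 1.65 ± 0.365 (SE from edgeR's model, adjusted p = 0.000315). PAM, which amidates peptides, was read in both lines (1663, 2280, 1182 and 1249) and was not called (-0.68 ± 0.287, edgeR adjusted p = 0.0527). GNAS, a G protein gene and the most abundant of this list, was higher in the SCC15-labelled libraries (1.01 ± 0.287, edgeR adjusted p = 0.00398). None of the 20 was called with decitabine, where the largest log2 folds were those of HID1, a granule biogenesis gene (1.57 ± 0.46, edgeR adjusted p = 0.121), RAB3D, a vesicle GTPase (1.21 ± 0.387, adjusted p = 0.179), and PCSK1N.

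Some paralogues lay on opposite sides of the comparison of lines. CADPS, a granule priming factor, had 1 and 0 reads in CAL27 and 118 and 170 in the SCC15-labelled pair, while CADPS2 had 98 and 63 against 0 and 2. RAB3C, a GTPase of secretory vesicles, had 0 and 0 against 292 and 739, while RAB3B had 423 and 363 against 17 and 41. These 4 genes were picked after their values were seen, so the reads are a description.

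Cargo precursors other than the members VGF and SCG2 were read in part. Of 52 such prohormone and neuropeptide genes, 18 had 0 reads in all 4 libraries, insulin (INS), glucagon (GCG), somatostatin (SST) and gastrin (GAST) among them, and 31 had at most 3 reads in any library. Among all 51103 genes, 20667 to 23589 per library had an FPKM above 0, so unread genes are not particular to this list. Of 13 tested, 5 were higher and 5 lower in the SCC15-labelled libraries and none was called with decitabine. CRH was not among those tested and was chosen after its values were seen. It had 0 and 0 reads in CAL27 and 4 and 71 in the SCC15-labelled pair, 14.8-fold with drug (5.54 to 55.8). BDNF, a neurotrophin sorted into regulated granules and chosen after its values were seen, had 19 and 25 reads in CAL27 and 827 and 929 in the SCC15-labelled pair (log2 5.32 ± 0.394, edgeR adjusted p = 3.58e-14). ADM, also chosen after its values were seen, had 403 and 544 against 1033 and 1303 (log2 1.31 ± 0.287, edgeR adjusted p = 0.000262). GAL, the precursor of galanin, had 460 and 238 reads in CAL27 and 141 and 74 in the SCC15-labelled pair, a shared log2 fold with decitabine of -1.15 ± 0.362 (edgeR adjusted p = 0.171). The shared log2 fold of ADM2, a peptide of the calcitonin family, was 1.26 ± 0.522 (adjusted p = 0.363), that of UCN2, a urocortin, -1.01 ± 0.469 (adjusted p = 0.449) and that of NMB, neuromedin B, 0.89 ± 0.349 (adjusted p = 0.33), all by edgeR.

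Among the enzymes that process precursors outside granules, the calls between lines were all on the lower side. Of 14 constitutive convertases and carboxypeptidases 9 were tested, 3 were lower there (PCSK6, CPD and CPM) and none was called higher or called with decitabine. In the treated libraries alone, FURIN was 1.70-fold higher in the SCC15-labelled one (1.61 to 1.80), PCSK7 1.92-fold (1.61 to 2.29), and the untested CPXM1, with 0, 2, 8 and 85 reads, 41.1-fold (11 to 345); the last 2 genes were chosen after their values were seen. CPD, the Golgi relative of CPE, had 3533 and 3783 reads in CAL27 and 1053 and 1411 in the SCC15-labelled pair (log2 -1.58 ± 0.29, edgeR adjusted p = 2.3e-05). FURIN, the general convertase of the trans-Golgi network, had 1534 and 1913 reads against 1174 and 3371, with a shared decitabine log2 fold of 0.71 ± 0.302 (edgeR adjusted p = 0.383). PCSK5 and CPM had shared log2 folds of 0.60 ± 0.541 and 0.62 ± 0.479 (edgeR adjusted p = 0.755 and 0.712).

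Vesicle membrane and fusion partners were mixed. Of 10 genes for relatives of SYP and other vesicle membrane proteins, 6 were tested, 3 were higher in the SCC15-labelled libraries (SYNGR1, SYNGR3 and SV2A) and SYNGR2, the synaptogyrin of non-neuronal cells, was lower. SV2A, a glycoprotein of synaptic vesicles and granules, had 113, 169, 553 and 1060 reads (log2 2.48 ± 0.328, edgeR adjusted p = 6.69e-08). Of 16 SNARE genes, all tested, 4 were higher and 5 lower. STX1A, the syntaxin that pairs with SNAP25 and chosen after its values were seen, had 95 and 99 reads in CAL27 and 3261 and 4658 in the SCC15-labelled pair (5.33 ± 0.347, edgeR adjusted p = 1.05e-15), and VAMP8, a SNARE of epithelial secretion, had 658 and 959 against 137 and 263 (-2.06 ± 0.318, adjusted p = 1.34e-06). VAMP3, the most abundant SNARE by FPKM summed over the 4 libraries, was not called (-0.54 ± 0.283, edgeR adjusted p = 0.118), nor was SNAP23, the general counterpart of SNAP25, chosen after its values were seen (-0.53 ± 0.42, edgeR adjusted p = 0.323). None of the 22 tested genes of these lists was called with decitabine.

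**Figure D5:**
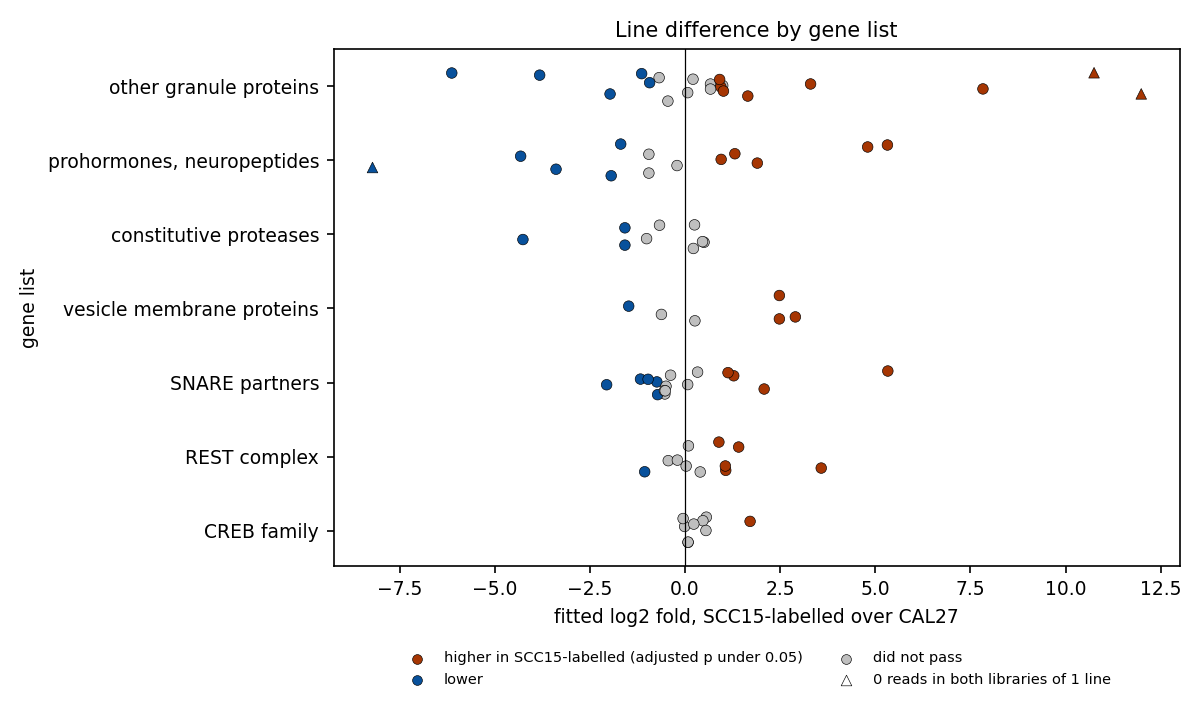
Fitted log2 fold of the SCC15-labelled libraries over CAL27 for the tested genes of 7 lists (members not plotted); colour gives edgeR's call at an adjusted p of 0.05, vertical jitter is for legibility, and triangles are genes with 0 reads in both libraries of a line, whose fold depends on the prior count. The further granule proteins and prohormones reach far to both sides, and the CREB family stays close to 0 except for CREB3L1 (1.71).

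Transcripts of the repressor REST were higher in the SCC15-labelled libraries than in CAL27. REST protein and its binding were not measured here, and any part of REST in the levels of the granule genes was not tested. REST had 607 and 521 reads in CAL27 and 1237 and 1121 in the SCC15-labelled pair, a line difference of 1.07 ± 0.283 on the log2 scale (edgeR adjusted p = 0.00209), with a shared decitabine log2 fold of -0.39 ± 0.28 (adjusted p = 0.68). Of 11 genes of its complex, all tested, 5 were higher in the SCC15-labelled libraries (REST, RCOR1, RCOR2, EHMT1 and PHF21A) and the demethylase KDM1A was lower. HDAC1, a deacetylase and the most abundant of them, was not called between lines (-0.44 ± 0.283, edgeR adjusted p = 0.213). RCOR2, a corepressor of the CoREST family, was the only gene of all 7 further lists that passed with decitabine. It rose in both lines, with 7 reads in untreated and 46 in treated CAL27, and 134 and 426 in the SCC15-labelled pair, a shared log2 fold of 1.79 ± 0.449 (edgeR adjusted p = 0.0495). That call was at the edge of the threshold and ended with DESeq2 (adjusted p = 0.334) and with the GC trend removed (1.34, adjusted p = 0.202).

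Of 9 genes of the CREB family and its coactivators, all tested, CREB3L1 alone was higher in the SCC15-labelled libraries and none was called with decitabine. CREB1, which binds the palindrome shown above, had 865 and 808 reads in CAL27 and 948 and 719 in the SCC15-labelled pair (log2 line difference -0.01 ± 0.283, edgeR adjusted p = 0.976).

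Over the 7 lists together 26 genes were higher and 20 lower in the SCC15-labelled libraries, 24 and 22 with DESeq2 size factors, 22 and 25 with total-count scaling, and 23 and 27 by limma on log2(FPKM + 0.1). Other markers of neuroendocrine cells were mixed. Of 11 such markers, the transcription factors INSM1 and NEUROD1 had 0 and 1 reads in the untreated SCC15-labelled library and 0 each in the treated one. The summed CPM of these markers was 33.0 and 54.8 there and 89.9 and 152 in CAL27, most of it from ENO2, with 1177 and 2242 reads in CAL27 against 326 and 645. Of the 4 tested, ENO2 and NKX2-1 were lower in the SCC15-labelled libraries by edgeR's quasi-likelihood test, while NCAM1 (76 and 126 reads in CAL27 against 111 and 215) and UCHL1 (1 and 36 against 23 and 43) were not called. Of 10 neuronal markers 7 were tested, and 4 were higher (TUBB3, STMN2, SYT1 and GAP43) and 3 lower (MAP2, NEFL and NEFM). TUBB3, STMN2 and GAP43 passed the filter on low counts through the SCC15-labelled libraries alone and MAP2 through CAL27 alone, so these had to differ. No cell type is assigned to these libraries here.

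The genes whose levels over the 4 libraries were most like those of the 2 most-read members were sought by the Euclidean distance of mean-centred log2(CPM + 1). Nearest to VGF were PEG10 at 0.344, with 0, 6, 12029 and 18758 reads, CKB at 0.624, with 3, 20, 10049 and 16603, and VIM at 0.908. Nearest to SCG2 were TRPV2 at 0.238, with 10, 14, 2913 and 5122 reads, COL5A2 at 0.239, with 17, 25, 5017 and 6850, and MAGED1 at 0.252, with 0, 3, 1646 and 3021. None of the 6 is a granule gene of the lists. With 4 libraries, likeness reflects mostly the difference between the lines.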

How the data were processed

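RNA from 4 cultures, 1 per line and treatment, was sequenced from NEBNext Ultra libraries, per the labels' protocols. The authors deposited whole-number read counts per gene and FPKM values; HISAT2, HTSeq 0.13.5 and GRCh38 are named, per the submitters' processing notes, while the labels give no settings, annotation release or strand. Positions and transcript GC are from GENCODE release 29 on GRCh38, where all 51103 identifiers were found.

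Counts were analysed with edgeR 4.0.16 in R 4.3.3: TMM scaling, filterByExpr on treatment groups (minimum count 10, minimum total 15), and the quasi-likelihood test with terms for line and treatment, Benjamini-Hochberg adjusted over 15427 genes at 0.05. Pairing by line comes from the labels. This leaves 1 residual degree of freedom per gene, moderated across genes. With 1 library per combination, that residual is the difference in response between lines. An SE is thus based on it and holds no measure of the spread between replicate cultures. Within a line there is no test. Counting intervals are exact conditional binomial at 95%; they and floors cover counting error only. The GC trend of each line's ratio was fitted by lowess (span 0.3). Alternatives used DESeq2 1.42.0 and limma 3.58.1. The fit was also run on simulated counts that held no difference in response between lines and no GC trend. Nothing is read from that run for these data.

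Members and lists were chosen with earlier results of these data known. Named beside the members are, per list, each gene called with decitabine, the 3 largest shared folds with at least 30 reads, the most abundant gene, REST and CREB1; others are marked. In bulk RNA, fewer cells of a type and less RNA per cell cannot be told apart.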

Additional observations from a re-analysis of the deposited data

How the results depend on the processing

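For each member in each line where a fold was given, the log2 ratio moved by less than its counting interval with a prior count of 0.5, total-count scaling and FPKM + 0.1, in 15 of 15 cases each. With the GC trend removed, an alternative chosen after seeing the data, 9 of 15 moved by more, the past-threshold members numbered 1 in CAL27 and 0 in the SCC15-labelled pair, and the cause was not tested. Total-count scaling shifted the CAL27 ratios of all genes by 0.14 on the log2 scale.

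Over all genes, decitabine calls were 317 higher and 22 lower with total-count scaling, where 1 member and 3 genes of the other lists were higher, 155 and 21 without a filter, 53 and 5 with the GC trend removed along with the replicate block (0 higher and 1 lower in the other lists, GAL, adjusted p = 0.019), 27 higher with DESeq2, and 1 and 1 with limma on log2(FPKM + 1). With no replicate block 0 were higher and 0 lower. The 1 call in the other lists, RCOR2, became 0 with DESeq2 size factors, DESeq2, limma on either FPKM scale and no replicate block; its log2 ratio was 2.28 in the CAL27 pair and 1.39 in the SCC15 pair alone. HID1 (total-count scaling, adjusted p = 0.0343) and SYNGR1 (0.0465) were called once each. Between lines, DESeq2 called 17 genes of the other lists higher, fewer than edgeR did. Those left out included PCSK1N (DESeq2 adjusted p = 0.0503) and PHF21A (0.0529), which were close to the threshold, and others not named here.

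Within lines, no CPM minimum gave 2430 higher and 1611 lower genes in CAL27 and 3365 and 2766 in the SCC15-labelled pair, and FPKM + 0.1 gave 103 lower in CAL27. Depth limits the CAL27 values: with 0 to 3 reads, 5 members allow no fold.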
